A study of Homo sapiens with 13 samples.

Results

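Chromatin accessibility was examined at the gene loci of integrins and laminins in T98G cells. The loci comprised the protein-coding genes of GENCODE release 44 on GRCh37, the assembly of hg19, whose symbol is ITGA, ITGB, LAMA, LAMB or LAMC followed by a number. This gave 32 genes, 20 for integrins and 12 for laminins, each taken with 5 kb on either side. Of the 129347 peaks in the deposited table, 187 overlapped these loci, every gene had at least 1 peak, and no peak belonged to more than 1 of the genes. Peaks were split by position into 31 that overlap an annotated transcription start site (TSS) of the gene, 124 intragenic peaks in the gene body, 20 in the flanks and 12 at the TSS of another gene. A filter on low values left 143 peaks for testing, which were 28 TSS, 91 intragenic and 13 flank peaks and 11 at another TSS, and 44 were not tested.

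T98G is an established human glioblastoma line. ATAC-seq, in which the Tn5 transposase inserts sequencing adapters into open DNA, was measured in 3 G1 libraries and 3 M-phase libraries. G1 cells had been deprived of serum for 72 h. M-phase cells had been deprived of serum for 48 h and then released for 36 h into medium with serum and nocodazole, a drug that depolymerizes microtubules, before mitotic cells were collected by shake-off. Release into serum and nocodazole were therefore present in the M-phase cells alone, and their effect cannot be told apart from that of the phase. G1 libraries were run on the HiSeq, while each M-phase replicate had a HiSeq and a NextSeq run but 1 deposited column, so the platform cannot be told apart from the phase either. Nothing in the labels says whether the replicates came from separate cultures, and p-values measure the spread between these libraries, which may be technical. Values are read counts in a peak after the authors scaled every library down to the smallest, called scaled counts here. Their totals over all peaks were 4191845 to 5092426 in G1 and 5475345 to 6000423 in M-phase. The steps between values place the reads behind them at an estimated 4334543 to 5365054 in G1 and 12470619 to 14202877 in M-phase, so counting error is smaller in M-phase. As a check of the cell line, a TSS peak with a mean of at least 10 was present at 3 of 4 genes listed for mesenchymal glioblastoma (VIM, CD44 and FN1, but not NES) and at 0 of 4 blood genes. Of 2 epithelial genes, CDH1 had no TSS peak, and the TSS peak of EPCAM had mean scaled counts of 91.6 in G1 and 106.8 in M-phase.

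Integrins are receptors of an alpha and a beta chain that span the plasma membrane and bind the extracellular matrix outside the cell and the actin cytoskeleton, through adaptor proteins, inside it. Laminins are trimers of an alpha, a beta and a gamma chain that build basement membranes and are themselves ligands of several integrins. Adherent cells round up as they enter mitosis, when focal adhesions are largely taken apart, and the cells collected by shake-off are those that had become loosely attached.

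Sequences are given for 6 intragenic peaks with large changes. Chosen after their values were seen, these are the 4 largest rises among peaks whose scaled counts average 40 or more and whose phases do not overlap, and the 2 largest falls without overlap. No cut on level was applied to the falls. Some weaker peaks rose more than the last of the rises shown, such as that of ITGB3 at 13.6 kb (1.56). The 200 bases at the centre of each peak are given on the + strand of GRCh37 (hg19), and capitals mark matches to TGAGTCA, the site bound by AP-1 (FOS and JUN dimers), or to ACATTCC or GCATTCC, sites bound by TEAD factors, on either strand. All 6 lie in introns.
LAMA3, rise, chr18:21299737-21299936: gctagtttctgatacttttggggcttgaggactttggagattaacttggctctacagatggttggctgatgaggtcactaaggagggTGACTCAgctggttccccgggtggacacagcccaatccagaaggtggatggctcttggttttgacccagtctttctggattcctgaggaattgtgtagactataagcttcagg
LAMA3, rise, chr18:21298449-21298648: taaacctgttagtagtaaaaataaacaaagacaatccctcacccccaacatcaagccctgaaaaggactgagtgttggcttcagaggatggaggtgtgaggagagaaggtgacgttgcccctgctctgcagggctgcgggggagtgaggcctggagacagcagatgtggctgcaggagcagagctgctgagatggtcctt
ITGA11, rise, chr15:68647176-68647375: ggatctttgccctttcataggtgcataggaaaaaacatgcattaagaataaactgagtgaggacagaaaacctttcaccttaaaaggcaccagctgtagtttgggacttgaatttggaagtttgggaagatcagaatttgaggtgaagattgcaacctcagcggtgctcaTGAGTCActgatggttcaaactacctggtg
ITGB3, rise, chr17:45343539-45343738: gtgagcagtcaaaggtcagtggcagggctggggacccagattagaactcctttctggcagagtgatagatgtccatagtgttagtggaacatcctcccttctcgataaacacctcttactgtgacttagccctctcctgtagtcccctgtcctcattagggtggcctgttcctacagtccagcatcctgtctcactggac
LAMB3, fall, chr1:209792166-209792365: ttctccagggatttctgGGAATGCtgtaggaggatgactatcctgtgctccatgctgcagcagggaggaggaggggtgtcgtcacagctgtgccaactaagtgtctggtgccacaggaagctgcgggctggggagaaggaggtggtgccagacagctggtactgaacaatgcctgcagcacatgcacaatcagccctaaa
ITGA9, fall, chr3:37824001-37824200: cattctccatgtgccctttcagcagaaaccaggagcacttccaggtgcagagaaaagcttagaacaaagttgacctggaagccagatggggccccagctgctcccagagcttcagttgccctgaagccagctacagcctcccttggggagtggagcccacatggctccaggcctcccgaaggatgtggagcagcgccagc
One of the LAMA3 windows and the ITGA11 window hold an AP-1 site. The TEAD site of the LAMB3 window lies outside the peak itself, which is narrower than the window. The other 3 windows hold none of these sites.

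TSS peaks of these genes rose more often than they fell, as did TSS peaks of protein-coding genes in general. Of 28 tested TSS peaks, 10 were higher in M-phase, 2 were lower and 16 had no call at an adjusted p under 0.05 (limma, Benjamini-Hochberg over all 73121 tested peaks). The median log2 change, M-phase over G1, was 0.29 on the log2(scaled count + 8) scale, where changes of low peaks come out smaller than they are. Over all 13131 tested TSS peaks of protein-coding genes, 47.1% were called higher and 5.29% lower, with a median of 0.45, and the difference between the shares was not tested. Of the rises, 8 belonged to the 19 integrin TSS peaks and 2 to the 9 laminin TSS peaks. Both falls were at integrin genes. The count depends on the scaling: with every library set to the same total in peaks, 7 were higher and 5 lower (32.2% and 16.1% over all TSS peaks), and after a loess fit on abundance 5 were higher and 5 lower (22.5% and 17.6%).

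Among beta chains, ITGB1 encodes the partner of most alpha chains described here. Its stronger TSS peak (chr10:33246324-33247856, shared with the divergent transcript ITGB1-DT) covers the start of 28 annotated ITGB1 transcripts and lies 47.6 kb from the annotated 5′ end of the gene. Scaled counts there were 185.9, 183.6 and 177 in G1 and 444.9, 452.4 and 416.2 in M-phase. Every M-phase library was above every G1 library, as was the case at 52.3% of all tested TSS peaks, and the libraries of a phase lay close together. The change was 1.23 ± 0.17 (log2, SE; adjusted p = 1.6e-08, limma). A weaker peak at the annotated 5′ end, chosen after its values were seen, held 75.6, 40.6 and 72 in G1 and 108.8, 114.5 and 153.0 in M-phase, without overlap, and its change was 0.94 ± 0.22 (adjusted p = 0.000541, limma). Both calls held in every setting run.

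ITGB2, the beta chain of leukocyte integrins, had a TSS peak 3.6 kb from its 5′ end, shared with ITGB2-AS1. Scaled counts were 68.6, 110.2 and 59 in G1 and 132.6, 159.9 and 167.9 in M-phase. G1 replicate 2 was the highest of its phase but below all M-phase libraries, and the change was 0.93 ± 0.21 (adjusted p = 0.000374, limma). ITGB5, the vitronectin-binding partner of the alphaV chain, had 4 TSS peaks that did not move together. The strongest (chr3:124605002-124606670) held 161.1, 155.5 and 185 in G1 and 202.7, 237.3 and 268.5 in M-phase. M-phase was above G1 without overlap, with a change of 0.47 ± 0.19 (adjusted p = 0.0472, limma), a call lost with an equal total, the loess fit, no filter, a pseudocount of 1, and without G1 replicate 1 or 2 or M-phase replicate 2 or 3. The peak at 124499232-124500219, at the far end of the gene and shared with ITGB5-AS1, was chosen after its values were seen and held 105.4, 102.3 and 107 in G1 and 61.8, 39.1 and 56.3 in M-phase. Here M-phase was below G1 without overlap, as at 7.76% of all tested TSS peaks, and the fall was -0.92 ± 0.22 (adjusted p = 0.000776, limma), called in every setting run. A further peak 22.4 kb from the 5′ end was called higher (0.62 ± 0.24, adjusted p = 0.0392, limma) although its phases overlapped. That call was lost with an equal total, with no filter on low values, and in 5 of the 6 fits that left out a library, all but the one without G1 replicate 3. The peak at the 5′ end was too low to test. The TSS peaks of ITGB3, a chain of the platelet fibrinogen receptor and of the vitronectin receptor, and of ITGB8, which pairs with alphaV, had no call, with log2 changes of 0.09 and 0.22. Both peaks are also at the TSS of another gene, ITGB8-AS1 in the case of ITGB8. The loess fit turned the ITGB8 value to -0.58 (adjusted p = 3.76e-05, limma).

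Of the alpha chains that bind laminin, ITGA3 and ITGA7 rose and ITGA6 had no call. The ITGA7 peak held 92.5, 97.7 and 126 in G1 and 229.5, 243.5 and 298.8 in M-phase. All M-phase libraries were above G1, with a change of 1.23 ± 0.19 (adjusted p = 2.91e-07, limma), but the peak is also the TSS of the protein-coding gene BLOC1S1, so it cannot be assigned to 1 of them. ITGA3, whose TSS peak is shared with PICART1, had 312.2, 253.1 and 280 in G1 and 431.7, 447.9 and 462.4 in M-phase. The phases did not overlap and the change was 0.66 ± 0.17 (adjusted p = 0.00142, limma). After the loess fit this value was -0.07 and the call was lost. ITGA6 had a change of 0.31 ± 0.20 (adjusted p = 0.261, limma).

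Of the collagen-binding alpha chains, ITGA2 rose. Its TSS peak, shared with ITGA2-AS1, held 176.0, 163.3 and 224 in G1 and 364.6, 343.6 and 335.9 in M-phase. The phases were well apart and the change was 0.87 ± 0.18 (adjusted p = 6.02e-05, limma), a call lost after the loess fit. ITGA1, whose TSS peak is shared with PELO, and ITGA11 had no call, with values of 0.13 and 0.04. After the loess fit the ITGA1 value was -0.44 and called lower (adjusted p = 0.013, limma). The TSS peak of ITGA10 was not tested, with a mean of 3.4 over the 6 libraries. Among chains that recognise the RGD peptide of fibronectin and related ligands, ITGA8 fell: scaled counts were 24.9, 35.9 and 33 in G1 and 14.4, 19 and 12.5 in M-phase. All M-phase libraries were lower, with a change of -0.75 ± 0.28 (adjusted p = 0.0355, limma), and the call was lost after the loess fit and when G1 replicate 2 or 3 or M-phase replicate 1 or 3 was left out. ITGA5, the fibronectin receptor chain, had a value of 0.32 and ITGA2B, the platelet fibrinogen receptor chain, of -0.45, neither called. ITGA4, a chain of leukocyte receptors for VCAM1 and fibronectin, had a value of -0.15 with no call. With an equal total, ITGA2B (-0.74, adjusted p = 0.0246, limma) and ITGA4 (-0.48, adjusted p = 0.0298) were called lower.

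Among laminin genes, LAMC1, the gamma chain of most laminins, had the highest TSS peak of all 31 per length (273 scaled counts per kb of peak, over the 6 libraries), although levels at different loci also carry the copy number of the DNA, which was not measured here. It held 397.7, 323.4 and 411 in G1 and 729.2, 815.8 and 744.9 in M-phase. The M-phase libraries were all above G1 and the change was 1.01 ± 0.16 (adjusted p = 2.72e-07, limma), again lost after the loess fit. LAMB2, a beta chain, held 89.5, 103.9 and 139 in G1 and 158.2, 180.1 and 175.6 in M-phase. G1 replicate 3 came nearest to M-phase without reaching it, and the change was 0.61 ± 0.20 (adjusted p = 0.0145, limma). The call was lost with an equal total, after the loess fit, and without G1 replicate 1, M-phase replicate 2 or M-phase replicate 3. LAMA1, LAMA2, LAMA4, LAMB1, LAMB3 and LAMC3 had no call at any of their TSS peaks, with values from -0.20 at LAMA2 to 0.43 at LAMA4. The stronger LAMA2 peak was called lower with an equal total (-0.53, adjusted p = 0.0181, limma) and after the loess fit (-0.48, adjusted p = 0.0427), and the LAMB1 peak after the loess fit (-0.45, adjusted p = 0.00593). The LAMA2 peaks lie 607.8 and 618.4 kb from the 5′ end, at short transcripts, and no peak was found at the 5′ end itself. No TSS peak was found at 7 of the 32 genes, among them ITGA9, ITGB6, LAMA3 and LAMB4.

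**Figure D1:**
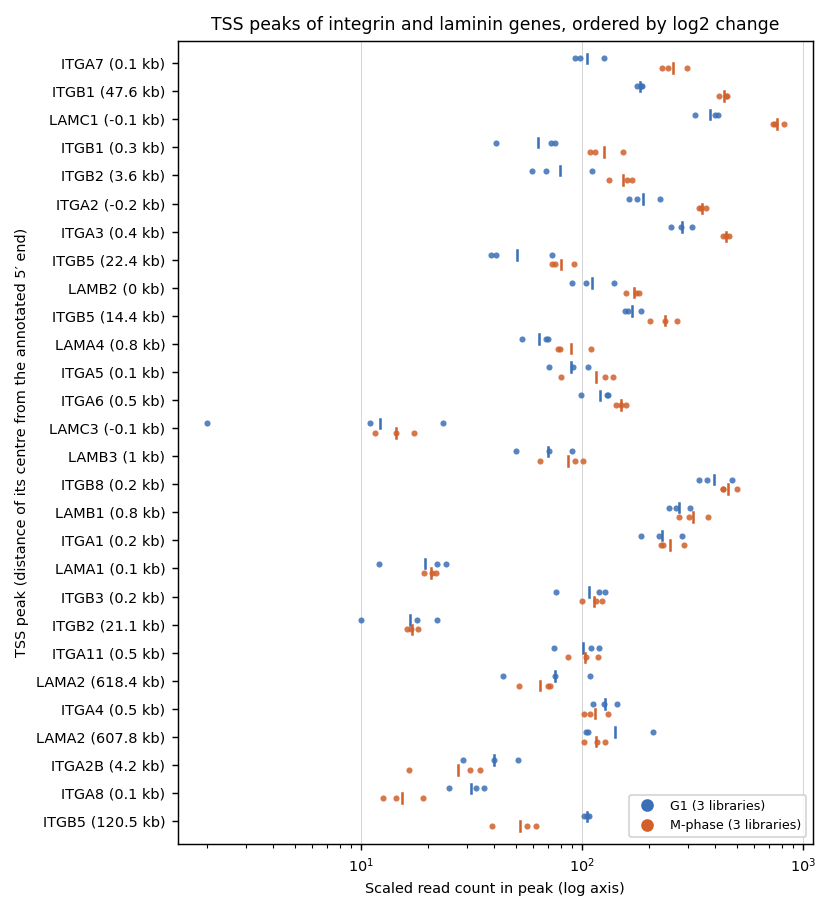
Scaled read counts (log axis) of the 28 tested TSS peaks in the 3 G1 libraries (blue) and the 3 M-phase libraries (orange), with the mean of each phase as a bar, ordered by log2 change from ITGA7 (1.23) at the top to the far ITGB5 peak (-0.92) at the bottom. In the middle of the plot, from LAMA4 down to ITGA2B, the peaks have no call.

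Intragenic peaks of these genes were called higher more often than lower. Of 91 tested, 18 were higher in M-phase (19.8%), 7 were lower (7.69%) and 66 had no call, with a median log2 change of 0.02. Over all 25710 tested intragenic peaks of protein-coding genes, 7.12% were called higher and 15.1% lower, with a median of -0.05. The difference from the background was not tested, because peaks of a locus are not independent: the 18 rises lie in 12 genes and the 7 falls in 6. Integrin genes had 11 rises and 5 falls among 56 tested peaks, and laminin genes 7 and 2 among 35. With an equal total in peaks, which moves the median of all tested peaks from 0.02 to -0.24, there were 13 rises and 16 falls (3.39% and 27.1% over all intragenic peaks). After the loess fit there were 19 rises and 5 falls (8.53% and 12.5%). In each of these settings the share higher was above that of all intragenic peaks and the share lower was below it. Of the stronger peaks, those averaging 50 or more scaled counts, 7 of 14 were higher and 0 lower (limma; 8 and 0 at an unadjusted p under 0.05), against 21.5% and 21.9% of 3733 intragenic peaks of that strength. These stronger peaks were counted with the authors' scaling alone. With an equal total, those of LAMB1 and LAMB4 were called lower, and the strongest ITGA3 peak and the ITGA6 peak lost their calls. After the loess fit, the LAMB4 peak was called lower and the ITGA3 peak lost its call. The ITGA5 rise was lost without M-phase replicate 3.

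**Figure D2:**
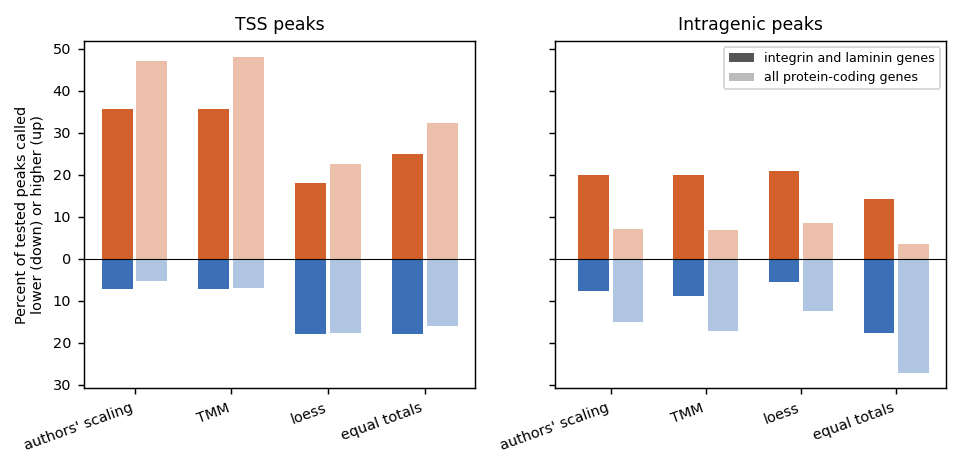
Percent of tested peaks called higher (orange, up) or lower (blue, down) in M-phase under 4 scalings, for integrin and laminin genes (dark) and for all protein-coding genes (pale). At TSS peaks the dark bars for rises are shorter than the pale ones, and at intragenic peaks they are longer, 19.8% against 7.12% with the authors' scaling.

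LAMA3 encodes the alpha chain of epithelial laminins and had no peak over an annotated TSS. A low peak that ends just before the 5′ end, with means of 5.53 in G1 and 5.17 in M-phase, was not tested. Its 3 intragenic peaks lie in an intron, close to each other and 27.1 to 30.4 kb from the 5′ end, and the sequences above were read from those at 29.1 and 30.4 kb. The one at 29.1 kb (chr18:21297878-21299221) held 29.8, 33.6 and 54 in G1 and 91.0, 134.3 and 110.2 in M-phase. All M-phase libraries were above all G1 libraries, as at 12.6% of all tested intragenic peaks, and the change was 1.36 ± 0.23 (adjusted p = 1.96e-06, limma). Its neighbour at 30.4 kb, outside the naming rule because its mean is under 50, held 16.9, 13.3 and 30 in G1 and 75.4, 73.3 and 90.0 in M-phase, the largest change of all 143 tested peaks at 1.68 ± 0.26 (adjusted p = 1.21e-07, limma). Both calls held in every setting run. A further peak 27.1 kb from the 5′ end, too low to test, held 2.0, 3.9 and 2 in G1 and 14, 16.1 and 6.3 in M-phase.

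ITGB3 also had a pair of neighbouring intron peaks that rose, and its TSS peak had no call. The peak at 12.4 kb (chr17:45343284-45343995) held 22.9, 28.9 and 35 in G1 and 57.3, 75.4 and 84.7 in M-phase. Phases did not overlap, and the change was 1.12 ± 0.25 (adjusted p = 0.000203, limma). At 13.6 kb, in a peak named after its values were seen, scaled counts of 7.0, 18.0 and 11 in G1 stood against 49.0, 55.2 and 45.2 in M-phase, a change of 1.56 ± 0.28 (adjusted p = 4.41e-06, limma). Further along the gene, a peak at the TSS of EFCAB13-DT fell by 0.71 on the log2 scale (adjusted p = 0.0239, limma), a call lost after the loess fit and without G1 replicate 3, M-phase replicate 1 or M-phase replicate 3.

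ITGA11, a receptor chain for fibrillar collagen, had 1 rise and 1 fall in its introns. The rising peak, 77.2 kb from the 5′ end, held 41.8, 37.5 and 42 in G1 and 114.1, 79.1 and 105.4 in M-phase. G1 libraries were nearly equal and all below M-phase, and the change was 1.14 ± 0.23 (adjusted p = 5.2e-05, limma). Nearer to the TSS, at 13.3 kb, a peak held 27.8, 14.8 and 30 in G1 and 9.1, 3.7 and 20.2 in M-phase. Phases overlapped there, and the fall of -0.82 ± 0.30 (adjusted p = 0.0309, limma) was not called after the loess fit or without G1 replicate 1 or 3 or M-phase replicate 1 or 2.

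At ITGA3, 5 of 5 tested peaks were called higher, of which the TSS peak, the strongest intragenic peak and the PDK2 peak lost the call after the loess fit. Its strongest intragenic peak (chr17:48139469-48140525, intron), which was also the strongest of all the intragenic peaks, held 153.1, 155.5 and 224 in G1 and 246.3, 259.2 and 312.3 in M-phase. G1 replicate 3 was the nearest to M-phase but did not overlap it, and the change was 0.61 ± 0.19 (adjusted p = 0.00813, limma), lost with an equal total, after the loess fit, and without G1 replicate 1 or M-phase replicate 3. At 8.7 kb, in an exon, a peak held 71.6, 72.7 and 70 in G1 and 109.6, 153.7 and 148.2 in M-phase. This peak rose without overlap by 0.86 ± 0.21 (adjusted p = 0.000939, limma) and kept its call in every setting run. The others were the TSS peak, a flank peak 4.7 kb upstream (1.11 ± 0.22, adjusted p = 2.33e-05, limma) and the TSS of the neighbouring gene PDK2 (0.89 ± 0.18, adjusted p = 4.44e-05, limma).

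ITGA5 had 5 tested peaks, all with values above 0 and 3 called. The exon peak at 7.6 kb held 18.9, 32.8 and 31 in G1 and 54.4, 44.1 and 120.3 in M-phase. M-phase replicate 3 was far above the others, and the change of 1.09 ± 0.26 (adjusted p = 0.000685, limma) lost its call without that replicate. Its other calls were flank peaks upstream of the gene, with values of 0.94 and 0.66. The first lost its call without G1 replicate 2 or M-phase replicate 2, and the second with an equal total, with no filter, and without G1 replicate 2 or 3 or M-phase replicate 1 or 2. Over all loci, 4 of 13 tested flank peaks were higher and 0 lower (limma; 4 and 1 at an unadjusted p under 0.05), against 14.3% and 13.1% of all tested peaks. Of all tested peaks, 19.7% had every M-phase library above every G1 library and 18.6% had every one below. The 4 rising flank peaks were at ITGA3, ITGA5 (2 peaks) and LAMB1, and 1 of them, at ITGA3, kept its call in every setting run.

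The remaining rises, apart from ITGA6, had means under 50 and were named after their values were seen. In ITGA1 an intron peak at 13.7 kb went from 3.0, 4.7 and 6 in G1 to 22.2, 24.7 and 26.5 in M-phase, a change of 1.37 ± 0.28 (adjusted p = 7.28e-05, limma). Every G1 library was at or under 6 scaled counts and every M-phase library was at or over 22.2. The peak therefore passed the filter on low values through M-phase alone. A nearby peak at 12.3 kb, at the TSS of PELO-AS1, was also called higher (0.79, adjusted p = 0.000274, limma), a call lost after the loess fit. LAMC1, with its rising TSS peak, also had intron peaks at 6.4 and 20.9 kb with changes of 1.24 and 0.90. ITGA2 likewise had intron peaks at 15.9 and 48.2 kb with changes of 0.95 and 0.75. An exon peak of ITGB5 at 42.2 kb changed by 1.23. LAMA4, an alpha chain of vascular and mesenchymal laminins, had rises of 1.01 at 50.9 kb and 0.78 at 37.9 kb and a fall of -0.75 at 23.1 kb, which lost its call in 5 of the 6 fits that left out a library. The ITGA6 peak at 14.9 kb was called (0.70, adjusted p = 0.017, limma) although G1 replicate 3, at 100, exceeded M-phase replicates 1 and 2, at 79.1 and 96.8. In all, 11 of the 18 rises kept their call in every setting that tested them. Of these, the peaks of ITGA1 at 13.7 kb, ITGB3 at 13.6 kb, ITGB5 at 42.2 kb and LAMC1 at 6.4 kb were low in G1. They were not tested where every library had to pass the filter on low values. Among the rises that lost a call were the LAMC1 peak at 20.9 kb, the LAMA4 peak at 37.9 kb, the ITGA2 peak at 48.2 kb and the ITGA6 peak. Each was lost with an equal total and without M-phase replicate 3. That LAMA4 peak was also lost without G1 replicate 1 or 2 or M-phase replicate 1. The ITGA2 peak was also lost without G1 replicate 1 or M-phase replicate 1 or 2, and the ITGA6 peak without G1 replicate 1 or 2.

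Falls were fewer and weaker in mean level over both phases, which includes the change itself. None of the 7 reached a mean of 50, so all were named after their values were seen. LAMB3, the beta chain of epithelial laminin, had the largest: an intron peak at 33.5 kb held 13.9, 26.6 and 38 in G1 and 5.8, 4.1 and 3.8 in M-phase. All M-phase libraries were below G1, as at 21.5% of all tested intragenic peaks, with a change of -1.38 ± 0.29 (adjusted p = 9.91e-05, limma). ITGA9, which pairs with the beta1 chain, had 2 falls among 3 tested peaks and no rise. The one at 330.5 kb held 39.8, 35.2 and 42 in G1 and 15.2, 9.9 and 6.7 in M-phase, without overlap, and changed by -1.36 ± 0.28 (adjusted p = 8.15e-05, limma). At 41.1 kb the values were 12.9, 8.6 and 15 in G1 against 3.3, 5.4 and 0.0 in M-phase, and that call was lost after the loess fit and without M-phase replicate 3. ITGA4, the chain related to ITGA9, held 15.9, 23.4 and 20 in G1 and 3.3, 6.2 and 7.2 in M-phase at 8.9 kb, a change of -1.04 ± 0.28 (adjusted p = 0.00303, limma). As a group, alpha4 and alpha9 had 3 falls and 0 rises among 6 tested intragenic peaks (limma), with a median of -0.67, beside 15.1% lower and 7.12% higher over all intragenic peaks. The group is 2 genes, and the ITGA9 fall at 41.1 kb was among those lost in other settings. The ITGA4 peak and the ITGA9 peak at 41.1 kb passed the filter on low values through G1 alone. None of the 3 falls was tested with at least 10 required in every library. ITGB8 had a fall at 77.5 kb, from 55.7, 48.4 and 97 in G1 to 38.3, 26.0 and 22.6 in M-phase, with a change of -0.99 ± 0.26 (adjusted p = 0.00163, limma). Of the 7 falls, 4 kept their call in every setting that tested them. These were the peaks of LAMB3, ITGB8 and ITGA4 and the ITGA9 peak at 330.5 kb. Of these, only the ITGB8 peak was tested with at least 10 required in every library. The LAMB3 peak also passed the filter on low values through G1 alone.

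**Figure D3:**
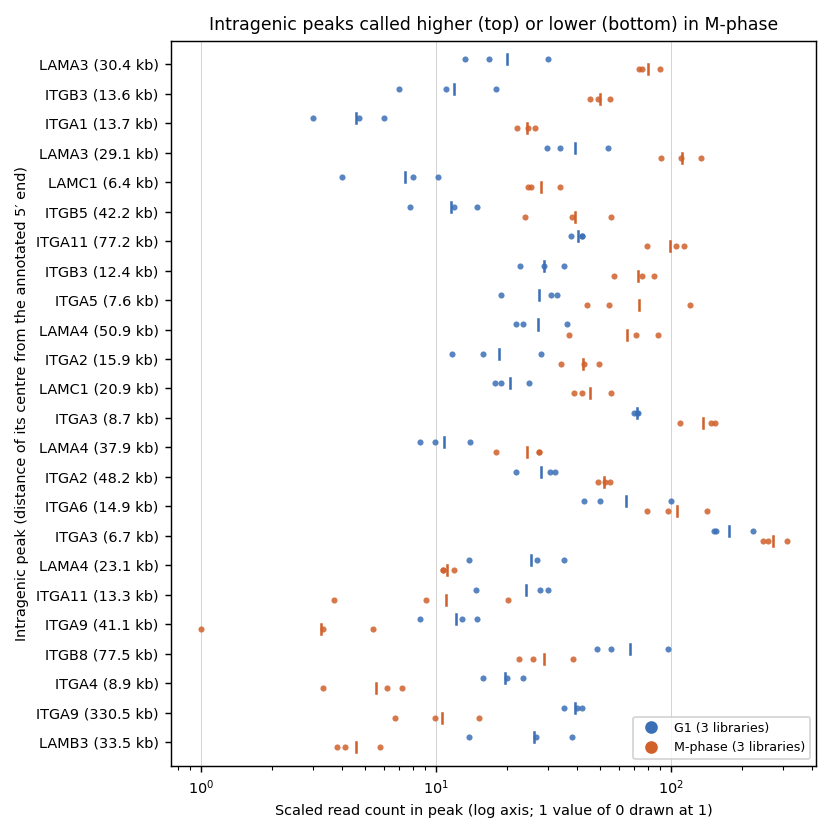
Scaled read counts (log axis) of 24 of the 25 intragenic peaks with a call, in the 3 G1 libraries (blue) and the 3 M-phase libraries (orange), with the mean of each phase as a bar. The 17 rises drawn stand at the top, from LAMA3 at 1.68, and the 7 falls at the bottom, to LAMB3 at -1.38. Apart from ITGB8, the falls have lower means over both phases than most of the rises, and these means include the change itself.

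High intragenic peaks without a call in the reported fit are listed for comparison. LAMB4 had the strongest of them (chr7:107735420-107736627, exon), with 176.0, 95.3 and 146 in G1 and 96.8, 122.4 and 125.1 in M-phase. Its phases overlapped, and the value was -0.23 ± 0.21 (adjusted p = 0.459, limma). It was called lower with an equal total (-0.56, adjusted p = 0.0123, limma) and after the loess fit (-0.51, adjusted p = 0.0296). An exon peak of LAMB1 held 119.3, 82.0 and 139 in G1 and 70.4, 91.9 and 146.8 in M-phase, with full overlap and a value of -0.16 (-0.49 and called lower, adjusted p = 0.0463, limma, with an equal total). ITGB4, the beta chain of hemidesmosomes, had equal means of 59.5 ± 4.9 in G1 and 59.5 ± 15.9 in M-phase (SD, n = 3) in an exon peak, a difference of -0.02 ± 0.24.

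Where a gene had both a called intragenic peak and a tested TSS peak, the 2 could be set against each other within the same libraries. The strongest tested TSS peak of the gene was used. Of 20 such intragenic calls, 7 had a TSS peak called in the same direction (in ITGA2, ITGA3, ITGB5 and LAMC1) and 13 had a TSS peak without a call. Those 13 were in ITGA1, ITGA4, ITGA5, ITGA6, ITGA11, ITGB3, ITGB8, LAMA4 and LAMB3. At ITGB5 the call of the strongest TSS peak was lost in several settings, and the TSS peak at the far end of the gene was called lower. Whether an intragenic and a TSS peak of a gene changed by different amounts is not judged here. An exact permutation of their ratio over 6 libraries cannot give a p under 0.1, and pairs chosen by these calls differ by their choice.

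**Figure D4:**
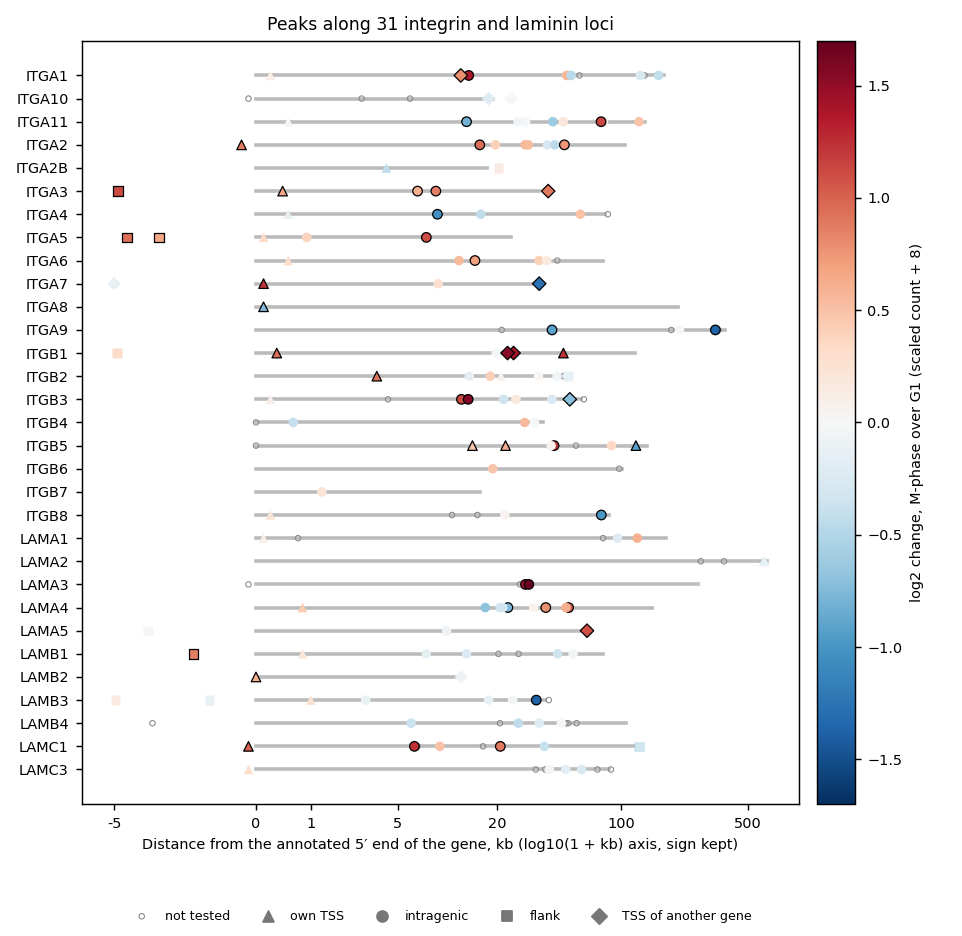
Each of 31 rows is a gene drawn as a grey line from its annotated 5′ end (0) to its 3′ end on a log10(1 + kb) axis, with its peaks coloured by log2 change (red higher, blue lower in M-phase); a black outline marks a call, and the shape the class of peak. In ITGA3 all 5 tested peaks are red and outlined, while ITGB3, LAMA4 and ITGA11 hold calls in both directions.

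Some peaks in these loci belong to the TSS of another gene, and of 11 tested, 5 were higher and 2 lower, beside 47.1% and 5.29% of all TSS peaks of protein-coding genes. The 2 sets are not alike, since several of the 11 peaks are at starts of non-coding genes only, such as ITGB1-DT and PELO-AS1. The largest changes were inside ITGB1, at starts of ITGB1-DT. One peak there held 57.7, 33.6 and 75 in G1 and 140.9, 167.3 and 203.5 in M-phase, without overlap, and changed by 1.53 ± 0.22 (adjusted p = 2.92e-08, limma). Its neighbour held 79.5, 71.1 and 96 in G1 and 220.4, 238.6 and 242.0 in M-phase, a change of 1.43 ± 0.20 (adjusted p = 9.04e-09, limma). Together with the TSS peaks, 4 of 6 tested peaks of ITGB1 rose. A peak near LAMA5 at the TSS of ADRM1, a proteasome subunit gene, rose by 1.09, a call lost after the loess fit. One near ITGA7 at the TSS of METTL7B fell by 1.26 on the log2 scale, opposite to the ITGA7 TSS peak. Over all classes, 18 of the 32 genes had a rise, 10 had a fall, 5 had both and 9 had neither.

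Sequence features were described for all 124 intragenic peaks, tested or not. TGAGTCA, on either strand, occurred in the central 200 bp of 24 of them (19.4%), against 9.48% of all 50678 intragenic peaks. These sets were not matched for strength or width. Medians were 16.1 scaled counts and 294 bp at these loci, against 9.35 scaled counts and 216 bp in all intragenic peaks. Among all 25710 tested intragenic peaks the share was 13.3%. How much of the contrast comes from strength or width was not tested. TGAGTCA occurred in 5 of the 18 rises (27.8%) and in 0 of the 7 falls, against 24.1% of all intragenic peaks called higher and 15.4% of those called lower. It was in 15 of the 66 tested peaks of these loci without a call (22.7%). TGTGGT, the RUNX site, was in 16.1% of these peaks against 17.3% of all, TGTTTAC or TATTTAC, forkhead sites, in 5.65% against 5.19%, and the TEAD sites in 11.3% against 6.5%. Counted over whole peaks, TGAGTCA was in 10 of the 18 rises (55.6%) against 51.6% of all intragenic peaks called higher. The median GC content was 47.8% in the rises and 45.9% in the falls, against 48.3% and 46.8% in all intragenic peaks called higher and lower. It was 49.6% in all intragenic peaks. At the TSS peaks, TGAGTCA occurred in 6 of 31 (19.4%) against 2.55% of all protein-coding TSS peaks, and over whole peaks in 8 (25.8%) against 14.4%. A match to these letters does not show binding.

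Other genes of cell-matrix adhesion were taken from a list of 34 genes, of which 33 had a peak. At their TSS peaks 17 of 39 tested were higher and 1 lower, with a median of 0.43, against 47.1% and 5.29% of all TSS peaks. Their intragenic peaks showed 8 rises and 13 falls among 96 tested, with a median of -0.02, against 7.12% and 15.1% of all. By the same criteria as for intragenic peaks, the largest rise was at the TSS of VCL, which encodes the actin-binding adaptor vinculin, with 186.9, 196.1 and 253 in G1 and 587.0, 613.5 and 623.6 in M-phase, all M-phase libraries higher and a change of 1.5 ± 0.17 (adjusted p = 1.15e-11, limma). Among falls with a mean of at least 50 and no overlap between phases, the largest was in an intragenic peak of TNS3, the adaptor tensin 3, with 189.9, 198.4 and 252 in G1 and 84.0, 122.0 and 117.4 in M-phase, all M-phase libraries lower and a change of -0.94 ± 0.20 (adjusted p = 9.64e-05, limma). ITGAV, the alpha chain that carries no number and pairs with the ITGB3, ITGB5 and ITGB8 products, had a TSS value of 0.18 (adjusted p = 0.508, limma) with overlapping phases.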

How the data were processed

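ATAC-seq values of T98G cells in G1 and M-phase were used, and the chromatin fraction and input were not analysed here. Upstream of the deposited table, the authors' alignment to hg19 (QuasR, Rbowtie) placed a read with up to 3 possible locations at 1 of them, so near-identical sequences can share reads. It followed cutadapt and the loss of 1 base per read at its 3′ end. The peaks are broad macs2 regions from pooled replicates of a phase, without mitochondrial reads (samtools). Versions, and whether read ends were shifted for Tn5, are not given in the sources used here. The deposited signal values are reads per peak, brought by the authors to the size of the smallest library and rounded to 0.1. Further deposited columns hold the authors' own log2 change and its SD and were not used.

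limma 3.58.1 in R 4.3.3 was fitted with a mean-variance trend to log2(scaled count + 8), without covariates, on peaks with a value equivalent to at least 10 in 3 libraries and a total of at least 15 (73121 of 129347). P-values were adjusted by Benjamini-Hochberg over all of these. On simulated data for the M-phase against G1 comparison over 73121 peaks, of which 200 were changed, 43% of 2-fold and 93.5% of 4-fold changes were called, with 5 and 6 false calls. In the data a far larger share was called, 14.3% higher and 13.1% lower. The adjustment of p-values depends on that share, so the simulated rates need not hold for the data. Annotation is GENCODE release 44 on GRCh37, and other steps used Python 3.11.15, numpy 2.4.6, pandas 2.3.3 and matplotlib 3.10.9. Named were the strongest TSS peak of each gene, the 8 largest rises and falls among called intragenic peaks with a mean of at least 50 and no overlap between phases (6 rises and 0 falls qualified), and the 3 strongest and 3 least changed intragenic peaks. Of the genes, 1 enters the counts but is not reported here by name. The genes, lists, tests and alternatives were chosen with earlier results of these data known. The alternatives were other scalings (TMM, loess on abundance, equal total in peaks), filters, a pseudocount of 1, the replicate block, other definitions of the classes and each library left out in turn.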

Additional observations from a re-analysis of the deposited data

How the results depend on the processing

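Counts of TSS peaks moved most with the scaling. After the loess fit 5 were higher and 5 lower with a median of 0.055, and with an equal total 5 were lower with a median of -0.033; with TSSs of protein-coding transcripts alone 1 was lower. For intragenic peaks, a filter of at least 10 in every library left 2 lower, and an equal total gave 16 lower with a median of -0.197. The adhesion partner genes had 14 higher with an equal total and 14 after the loess fit, and 34 lower with an equal total, against 25 higher and 14 lower. Leaving out 1 library gave 1 to 2 TSS peaks lower, 7 to 10 higher, 12 to 20 intragenic peaks higher and 5 to 6 lower, and 9 to 13 partner peaks lower (9 without M-phase replicate 1 or 2); without M-phase replicate 3, 12 intragenic peaks were higher.

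Of 32 named peaks, 9 changed sign with an equal total: the TSS peaks of ITGA1 (-0.216), ITGA11 (-0.29), ITGA5 (-0.006), ITGA6 (-0.021), ITGB3 (-0.243), ITGB8 (-0.126), LAMA1 (-0.164), LAMB1 (-0.14) and LAMB3 (-0.045). The same number, 9, did after the loess fit, the TSS peaks of ITGA1 (-0.44), ITGA11 (-0.145), ITGA3 (-0.074), ITGA6 (-0.002), ITGB3 (-0.128), ITGB5 (-0.016), ITGB8 (-0.579) and LAMB1 (-0.448) and the intragenic peak of ITGB4 (0.026). TMM turned ITGA11 (-0.011). With 1 library left out, signs changed at TSS peaks of ITGA1 (-0.017 to 0.284), ITGA11 (-0.151 to 0.159), ITGB3 (-0.124 to 0.215), LAMA1 (-0.115 to 0.228), LAMA2 (-0.364 to 0.114) and LAMC3 (-0.129 to 0.696), and at intragenic peaks of ITGB4 (-0.192 to 0.154) and LAMB1 (-0.427 to 0.064). Of these, only ITGA3 and ITGB5 were called in the reported fit. The causes were not tested.

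With the replicate block, 19 intragenic peaks were higher and 8 lower, and 10 and 2 TSS peaks. Deviations of same-numbered libraries correlated at 0.00594, -0.0101 and 0.0284, so the numbers were not taken as pairs. Counting flanks with the gene body, chosen after seeing the data, gave 22 higher and 7 lower. The planned count model was not run, since unscaled counts were not at hand. In G1, fewer reads limit what can be called at low peaks.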
